A study of Mus musculus with 8 samples.

Results

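The genes analysed here were the 10 genes of the machinery that fuses and divides mitochondria, Mfn1, Mfn2, Opa1, Oma1, Immt, Dnm1l, Fis1, Mff, Mief1 and Mief2. They were chosen by name, by a rule that uses no measured value, and all 10 were found among the 55487 gene identifiers of the deposited table. Each of the 10 had at least 10 counts in every library, as did 15135 genes in all.

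Mitochondria in muscle fibres form a network whose shape is set by the balance of fusion and division. The outer membranes are joined by the mitofusins Mfn1 and Mfn2, and the inner membranes by Opa1, a dynamin-like GTPase that the membrane protease Oma1 cleaves under stress. Immt (mitofilin, or Mic60) is the core of the complex that holds cristae junctions. Division is carried out by the GTPase Dnm1l (Drp1), which is drawn from the cytosol to the outer membrane by the receptors Mff, Mief1 (Mid51) and Mief2 (Mid49), with Fis1 as a further outer membrane adaptor.

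RNA from skeletal muscle of 8 male C57BL/6J mice was sequenced as poly-adenylated mRNA, 1 library per mouse. The mice were 10 weeks old, and both hindlimbs were held in casts for 8 days. Over that time they received K14Q MOTS-c at 15 mg/kg/day, split over 2 intraperitoneal injections each day. MOTS-c is a short peptide encoded in mitochondrial DNA, and K14Q MOTS-c is its form with glutamine in place of the lysine at position 14. The sample labels name the vastus lateralis as the tissue, whereas the methods and the design text name the gastrocnemius, so the text below says muscle. All 8 mice received the same treatment, and libraries of mice without casts, without peptide or with WT MOTS-c were not analysed here. The measurements therefore describe levels and their spread between mice within 1 condition, and no effect of immobilization or of K14Q MOTS-c can be read from them.

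The libraries held 23985356 to 33012497 counts, and the 10 most abundant genes took 18.8% to 26.2% of them. The muscle label was borne out by its markers, since the 8 myofibre markers summed to between 40632 and 56608 TPM (a level per length of gene, scaled to the same sum in every library). Blood markers summed to between 545 and 2413 TPM, fibroblast markers to between 97.3 and 193 TPM and macrophage markers to between 21.3 and 75.4 TPM. RNA of other cells was thus present, in amounts that sums of a few markers do not measure. In whole muscle, fewer cells of a type and less RNA per cell cannot be told apart. Each of the 28 pairs of libraries differed by more than sampling noise, with a chi-square over its degrees of freedom from 14.9 (mice 3 and 4) to 108 (mice 1 and 3).

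Values are compared between mice as normalized read counts, the deposited values, in which each count had been divided by a size factor of its library. Levels of different genes are compared within a mouse as TPM, with the length of all annotated exons joined as the length of the gene. The plot of normalized counts by mouse gives all 80 values.

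**Figure D1:**
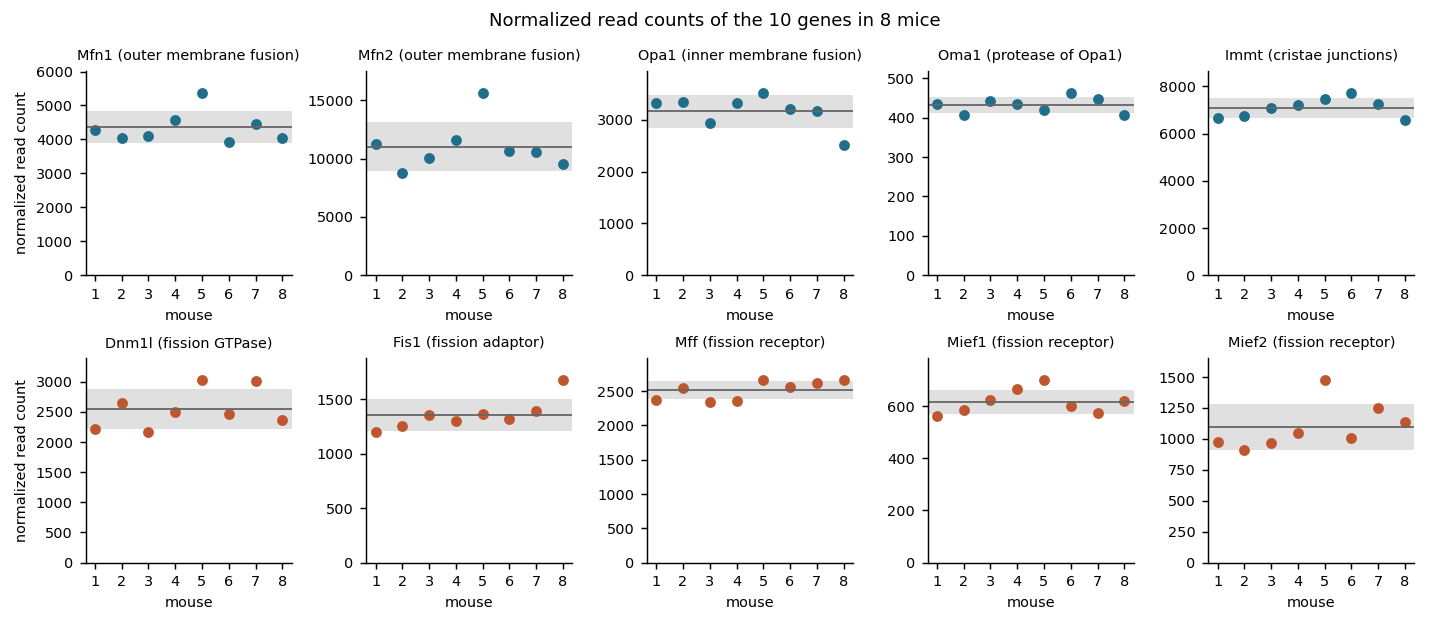
Normalized read count (vertical axes, each starting at 0) of each of the 10 genes in mice 1 to 8 (horizontal axes), with fusion and cristae genes in blue and fission genes in orange. The line is the mean and the grey band is 1 SD to each side over the 8 mice. Mfn1, Mfn2 and Mief2 have their highest point in mouse 5, and Fis1 has its highest point in mouse 8.

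Among the outer membrane fusion genes, Mfn2 was the more abundant mitofusin in all 8 mice. Mfn2 (chr4:147873599-147904704 of GRCm38, minus strand) had 11290, 8787, 10008, 11627, 15659, 10686, 10526 and 9519 normalized counts in mice 1 to 8, a mean of 11013 ± 2090 (SD, n = 8). Mfn1 (chr3:32529465-32579239, plus strand) had 4290, 4048, 4107, 4570, 5380, 3914, 4454 and 4056 normalized counts, a mean of 4352 ± 471 (SD, n = 8). Mouse 5 was the highest for both genes, at 1.49 times the median of the other mice for Mfn2 and 1.31 times for Mfn1, and the other 7 mice lay closer together. Without mouse 5, the coefficient of variation (SD over mean) fell from 19.0% to 9.59% for Mfn2 and from 10.8% to 5.69% for Mfn1. Per length, the ratio of Mfn2 to Mfn1 was 2.96 ± 0.279 (SD, n = 8), between 2.56 in mouse 2 and 3.43 in mouse 5. The ratio depends on the lengths taken. It was 2.65 ± 0.249 with the longest transcript of each gene, 2.71 ± 0.255 with the exons of protein-coding transcripts and 1.39 ± 0.131 with the mean transcript length (SD, n = 8 each).

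The mitofusins are related genes, so the counts were checked for reads that could belong to either. Their coding sequences were identical at 67.9% of 2192 aligned bases, and their proteins at 66.7% of 735 aligned residues. No stretch of 50 bases of any Mfn2 transcript occurred in a transcript of another gene.

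Opa1 and Oma1, the inner membrane fusion GTPase and one of its proteases, were measured at different depth. Opa1 (chr16:29579334-29654884, plus strand) had 3316, 3347, 2929, 3327, 3526, 3204, 3176 and 2507 normalized counts in mice 1 to 8, a mean of 3166 ± 317 (SD, n = 8). Mouse 8 was the lowest, and the other 7 mice lay between 2929 and 3526. Oma1 (chr4:103313812-103371868, plus strand) had 435, 407, 442, 434, 419, 464, 448 and 407 normalized counts, a mean of 432 ± 19.9 (SD, n = 8). The 8 values of Oma1 spanned a factor of 1.14, and its coefficient of variation of 4.60% was below the 4.86% that counting error alone gives. Per length, Opa1 stood at 2.0 ± 0.212 times Oma1 (SD, n = 8), with the lowest ratio of 1.68 in mouse 8 and the highest of 2.29 in mouse 5.

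Immt, which shapes the cristae, was one of the steadier genes of the set. Immt (chr6:71831331-71877388, plus strand) had 6648, 6738, 7066, 7225, 7475, 7740, 7245 and 6566 normalized counts, a mean of 7088 ± 415 (SD, n = 8). The highest mouse was mouse 6 and the lowest mouse 8, with a coefficient of variation of 5.86%. Of the 50-base stretches of Immt transcripts, 1.69% also occurred in transcripts of other genes, and 185 of its 11353 exon bases overlap a gene on the opposite strand, Gm44771.

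Dnm1l, the GTPase that constricts mitochondria, varied more between mice than the receptor Mff. Dnm1l (chr16:16312230-16358959, minus strand) had 2219, 2652, 2166, 2508, 3034, 2475, 3010 and 2367 normalized counts, a mean of 2554 ± 328 (SD, n = 8). Mice 5 and 7 were high at nearly the same level, and mice 1 and 3 were low. Mff (chr1:82724890-82752394, plus strand) had 2377, 2542, 2347, 2354, 2666, 2565, 2627 and 2664 normalized counts, a mean of 2518 ± 138 (SD, n = 8). The values of Mff fell into a narrow range with no mouse apart, and its coefficient of variation was 5.49% against 12.9% for Dnm1l. Both genes overlap a transcript on the opposite strand, Gm49521 over 4.67% of the exon bases of Dnm1l and C430014B12Rik over 2.0% of those of Mff, and the use of strand in counting is not given in the sources used here. Of the 50-base stretches of Dnm1l transcripts, 2.14% also occur in the processed pseudogene Gm13719.

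The paired receptors Mief1 and Mief2 differed in level and in spread. Mief1 (chr15:80234018-80253371, plus strand) had 563, 586, 624.8, 665, 702, 600, 574 and 622 normalized counts, a mean of 617 ± 47.2 (SD, n = 8). Mief2 (chr11:60728398-60732951, plus strand) had 973, 913, 968, 1045, 1477, 1008, 1250 and 1136 normalized counts, a mean of 1096 ± 188 (SD, n = 8). Mouse 5 was the highest for both receptors, at 1.47 times the median of the other mice for Mief2 and 1.17 times for Mief1, and mouse 7 was the next highest for Mief2. Per length, Mief2 stood at 5.30 ± 0.735 times Mief1 (SD, n = 8), and at 4.02 ± 0.557 times with the exons of protein-coding transcripts only, 3.83 ± 0.532 with the mean transcript length and 3.62 ± 0.503 with the longest transcript (SD, n = 8 each). Of the exon bases of Mief1, 2.63% are shared with AC140267.1 on the same strand, and reads there could have been assigned to either gene or to none.

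Fis1 was the only one of the 10 genes highest in mouse 8 by normalized counts. Fis1 (chr5:136953275-136966234, plus strand) had 1199, 1251, 1353, 1297, 1366, 1319, 1392 and 1679 normalized counts, a mean of 1357 ± 145 (SD, n = 8). Mouse 8 lay at 1.27 times the median of the other mice, which fell between 1199 and 1392. The gap from mouse 8 to the next mouse took 0.557 of the whole range of Fis1 on the log2 scale, above the critical value of 0.526 for 8 values (Dixon, 95%), and no other gene of the set passed that value. With library totals as the scaling the gap of Fis1 was 0.170, and Mfn2 passed as well with edgeR's TMM factors (0.532) and with trends on GC content and length removed (0.55). Of all 15135 genes, 5.33% passed it. Mfn2 and Mfn1 came close in mouse 5, with gaps of 0.515 and 0.513 of the range.

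The level per length ranked Mfn2 first and Mief1 last. Mfn2 had 131 ± 32.2 TPM, Fis1 48.8 ± 7.46 TPM, Mfn1 44.0 ± 7.86 TPM and Immt 38.7 ± 6.26 TPM (SD, n = 8 each). Dnm1l had 30.2 ± 4.33 TPM, Opa1 24.85 ± 4.17 TPM, Mief2 24.84 ± 4.75 TPM, Mff 15.9 ± 1.66 TPM, Oma1 12.5 ± 1.89 TPM and Mief1 4.73 ± 0.890 TPM (SD, n = 8 each). Of the 15135 genes, Mfn2 ranked above 96.1% by this level and Mief1 above 46.4%, so the lowest gene of the set sat near the middle of all genes.

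Each gene was tested against the next in this order by an exact two-sided sign-flip test of the log2 ratio within each mouse, adjusted over the 9 neighbouring pairs by the Benjamini-Hochberg method. The order held, with an adjusted p under 0.05, in 7 of 9 pairs with all exons joined. It held in 6 with the longest transcript, 4 with the mean transcript length and 6 with the exons of protein-coding transcripts. The 6 pairs were the same with both of those lengths, and they include Fis1 over Mfn1, which did not pass with all exons joined. Mfn2 was 2.65 times Fis1 (mean log2 ratio 1.41 ± 0.305, SD, n = 8), higher in 8 of 8 mice, with an adjusted exact p of 0.0117, from the smallest p that 8 mice can give (0.0078). The same p was reached, with 8 of 8 mice in the same order, by Immt over Dnm1l, Dnm1l over Opa1, Mief2 over Mff, Mff over Oma1 and Oma1 over Mief1. Of these log2 ratios, that of Mief2 over Mff was below 0 with each of the other 3 lengths (-0.58, -0.96 and -1.42). That of Dnm1l over Opa1 was below 0 with the mean transcript length (-0.30). Mfn1 exceeded Immt in 7 of 8 mice by a log2 ratio of 0.18 ± 0.144 (SD, n = 8; adjusted exact p = 0.0201), but the ratio was below 0 with each of the other 3 lengths (-1.10, -0.11 and -1.66). Fis1 and Mfn1 did not differ beyond their spread (log2 ratio 0.15 ± 0.213, 6 of 8 mice, adjusted exact p = 0.0703), nor did Opa1 and Mief2 (0.0046 ± 0.262, 5 of 8 mice, adjusted exact p = 0.961).

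The place of Immt and of Mff in the order depended on the gene length. All annotated exons of Immt join to 11353 bases, but its longest transcript has 3476 bases and the exons of its protein-coding transcripts join to 2881. With the last of these lengths Immt rose to 140 ± 21.6 TPM (SD, n = 8) and stood above Mfn2, at 121 ± 29.1 TPM (SD, n = 8), in 7 of 8 mice (exact sign-flip p = 0.0312, unadjusted). With the other 3 lengths Mfn2 was above Immt in 8 of 8 mice. Mff, whose exons join to 9757 bases in all and to 2181 in protein-coding transcripts, moved from rank 8 to rank 4, with 65.2 ± 6.32 TPM (SD, n = 8). Dnm1l stood at rank 5 and fell to rank 8 with the mean transcript length. Oma1 stayed at rank 9 and Mief1 at rank 10 under all 4 lengths, and Mfn2 stayed above Fis1 in 8 of 8 mice under all 4.

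**Figure D2:**
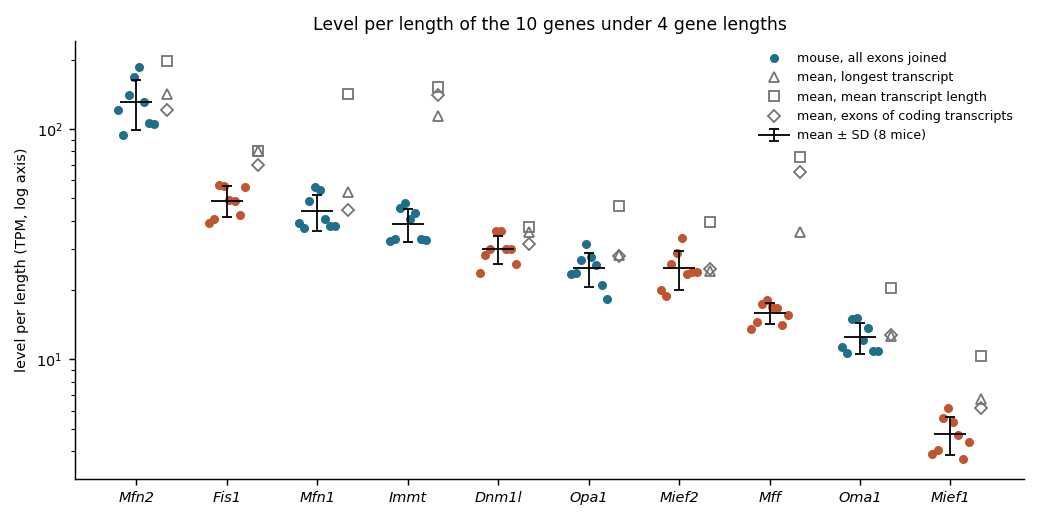
Level per length in TPM (vertical axis, logarithmic) of the 10 genes (horizontal axis, in the order of their means). Filled points are the 8 mice with all exons joined, the bars are the mean ± SD, and open marks are means with the other 3 gene lengths. The open marks of all 3 other lengths lie far above the filled points for Immt and Mff, as does that of the mean transcript length for Mfn1, and Mief1 is the lowest under every length.

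The summed level of the 3 fusion GTPases was compared within each mouse with that of the 5 fission genes. The ratio was 1.60 ± 0.213 (SD, n = 8), lowest in mouse 8 at 1.28 and highest in mouse 5 at 1.90. It was 1.58 ± 0.198 with the mean transcript length, 1.22 ± 0.171 with the longest transcripts and 0.977 ± 0.134 with the exons of protein-coding transcripts only (SD, n = 8 each), the last of these within its spread of 1. The ratio of Fis1 to Dnm1l also had its extremes in these mice, with 2.15 in mouse 8 and 1.37 in mouse 5 around a mean of 1.64 ± 0.270 (SD, n = 8).

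Variation between mice was set against counting error with a chi-square test on 7 degrees of freedom, adjusted over all 15135 genes. Of the 10 genes, 9 varied by more than counting error (adjusted p under 0.05), against 81.0% of all genes tested, so this share was near the background. The exception was Oma1, with a chi-square of 0.892 times its degrees of freedom and an adjusted p of 0.532. After subtraction of counting error the median coefficient of variation of the 10 genes was 10.1%, beside 13.1% over all genes. Only Mfn2 (19.0%) and Mief2 (16.8%) lay above the median of all genes, and Mff (5.11%) and Immt (5.73%) lay below its lower quartile of 8.70%, as did Mief1 (6.49%) and Oma1 (no variation left). Mouse 5 was the highest for both Mfn2 and Mief2, and without it their coefficients of variation, counting error included, were 9.59% and 11.1%, against 19.0% and 17.1% with it.

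**Figure D3:**
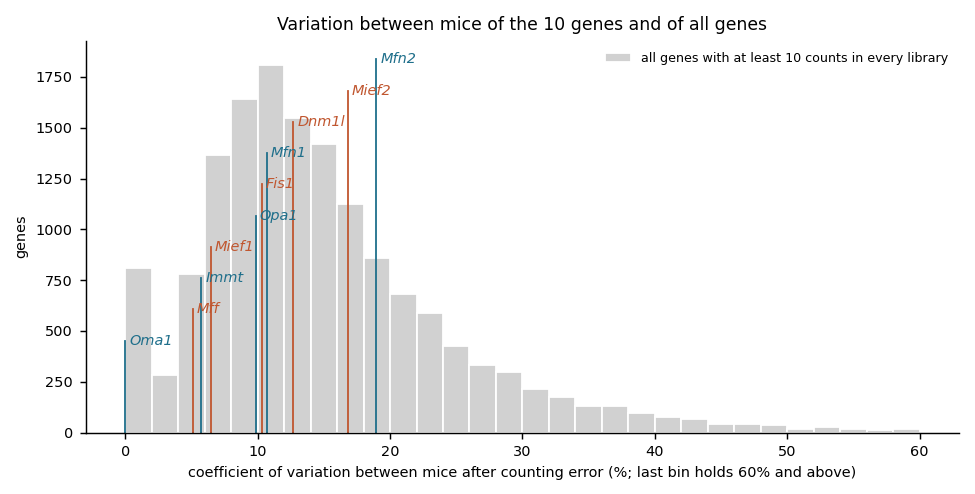
Number of genes (vertical axis) by coefficient of variation between the 8 mice after counting error was subtracted (horizontal axis, %), for the 15135 genes that passed the count filter. Vertical lines mark the 10 genes, in blue for fusion and cristae and in orange for fission; the height of a line only spaces the names. Mfn2 and Mief2 are the only lines to the right of the median of 13.1%.

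By normalized counts, mouse 5 was the highest mouse for 7 of the 10 genes and the lowest for none. Over all 15135 genes, it was the highest for 15.9%. The 7 genes were Mfn1, Mfn2, Opa1, Dnm1l, Mff, Mief1 and Mief2, and for Mff mouse 5 was nearly level with mouse 8 (2666 against 2664 normalized counts). With edgeR's TMM factors mouse 5 was highest for 6 of the 10 genes (beside 14.7% of all genes), with trends on GC content and length removed for 6 (beside 15.7%), and with library totals alone for 4 (beside 9.45%). Fusion and fission genes were both among those highest in mouse 5. By TPM, mouse 5 was the highest only for Mfn2 and Mief2. Mouse 4 was then the highest for Mfn1, Opa1, Oma1, Dnm1l, Mff, Mief1 and Immt, and mouse 3 for Fis1. The share over all genes was not computed by TPM. The 5 blood markers were all highest in mouse 5 by normalized counts, and their summed level was 2360 TPM in mouse 5 and 2413 TPM in mouse 3, against 545 to 1001 TPM in the other 6 mice. The part of blood RNA in the values of mouse 5 was not tested. Mouse 8 had the lowest Opa1, Oma1 and Immt and the highest Fis1, in a library that was lowest for 20.7% and highest for 18% of all genes. That library also had the steepest trend on gene length, with a slope of -0.11 (log2 per SD of log2 length), against -0.026 to 0.058 in the other 7. At the length and GC content of each gene the trend of mouse 8 amounted to -0.17 (log2) for Immt, -0.11 for Opa1, 0.057 for Fis1 and 0.043 for Oma1. With such trends removed from every library, mouse 8 was still the lowest for Opa1 and Oma1 and the highest for Fis1, it became the highest for Mff as well, and mouse 2 was the lowest for Immt. For Oma1, mouse 8 was nearly level with mouse 2 before that step (407.2 against 407.5 normalized counts). Its values did not vary beyond counting error (adjusted chi-square p = 0.532).

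**Figure D4:**
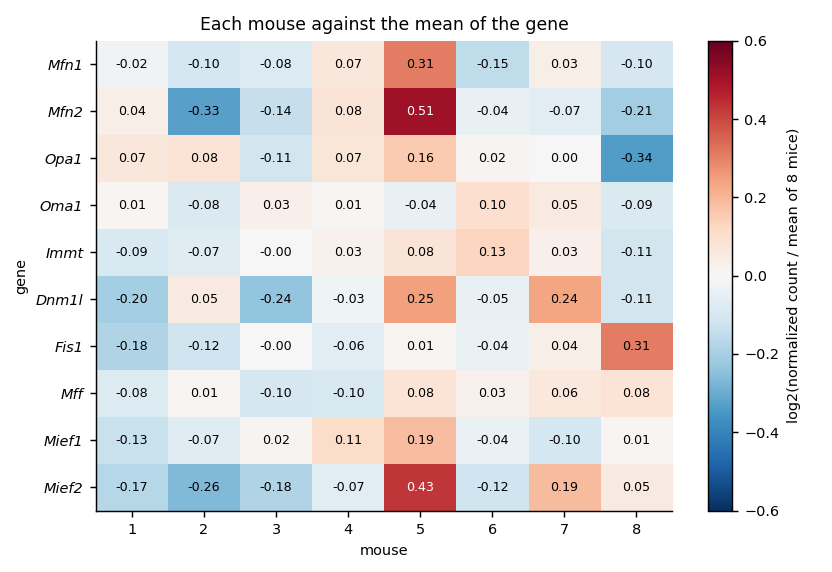
Log2 of the normalized count of each mouse over the mean of the 8 mice (colour and printed value) for the 10 genes (rows) and mice 1 to 8 (columns). The column of mouse 5 is positive for 9 of the 10 genes and strongest for Mfn2 and Mief2, and mouse 8 pairs the lowest value of Opa1 with the highest of Fis1.

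Between genes that act together, 8 relations were examined over the 8 mice, as Pearson's r and Spearman's rho of log2(normalized count + 1), with exact permutation of all pairings of the mice and adjustment over the 8. None reached an adjusted p under 0.05, and 1 had an unadjusted p under 0.05. That was Mfn1 with Mfn2 (r = 0.896, exact p = 0.0085, adjusted p = 0.0681; rho = 0.714, exact p = 0.0576, adjusted p = 0.460). Without mice 4 and 5, the mice farthest from the median of Mfn1, r was 0.396. It was 0.609 without mouse 5 alone and 0.893 without mouse 4 alone, so r fell with mouse 5 left out and hardly with only mouse 4 left out. The relation passed the threshold without mouse 6 (r = 0.962, adjusted exact p = 0.0222) and with library totals as the scaling (r = 0.913, adjusted exact p = 0.00377).

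The other 7 relations had a weaker r. Dnm1l with Mff had r = 0.676 (exact p = 0.0752, adjusted p = 0.301; rho = 0.619, exact p = 0.115, adjusted p = 0.460), and 0.441 without mice 5 and 7. Mief1 with Mief2 had r = 0.554, Mfn2 with Opa1 0.538, Opa1 with Immt 0.459, Mfn2 with Dnm1l 0.438, Opa1 with Oma1 0.205 and Dnm1l with Fis1 0.061, with unadjusted exact permutation p-values of 0.154 to 0.90 and adjusted values of 0.348 to 0.90. Their rho lay between -0.214 and 0.500, with exact permutation p-values of 0.216 to 0.619 and adjusted values of 0.576 to 0.619. After the 2 mice farthest from the median of the first gene were left out, r of these 6 lay between -0.747 and 0.918, so the sign of none but Mfn2 with Opa1 and Mfn2 with Dnm1l was kept.

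Over all 45 pairs of the 10 genes, which share libraries and scaling, r had a median of 0.32 and was positive in 34. Over 443415 pairs sampled from all genes tested, r had a median of -0.00064, with quartiles of -0.33 and 0.33, and was positive in 221481. Without mouse 5 the median was 0.16 and 28 pairs were positive. The lowest r was that of Opa1 with Fis1, at -0.821, a pair singled out after its value was seen. It rested on mouse 8, since r was -0.264 without that mouse, and it was -0.111 with library totals as the scaling, -0.883 with edgeR's TMM factors and -0.654 with trends on GC content and length removed. The mice other than mouse 8 spanned 2929 to 3526 normalized counts of Opa1 and 1199 to 1392 of Fis1.

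**Figure D5:**
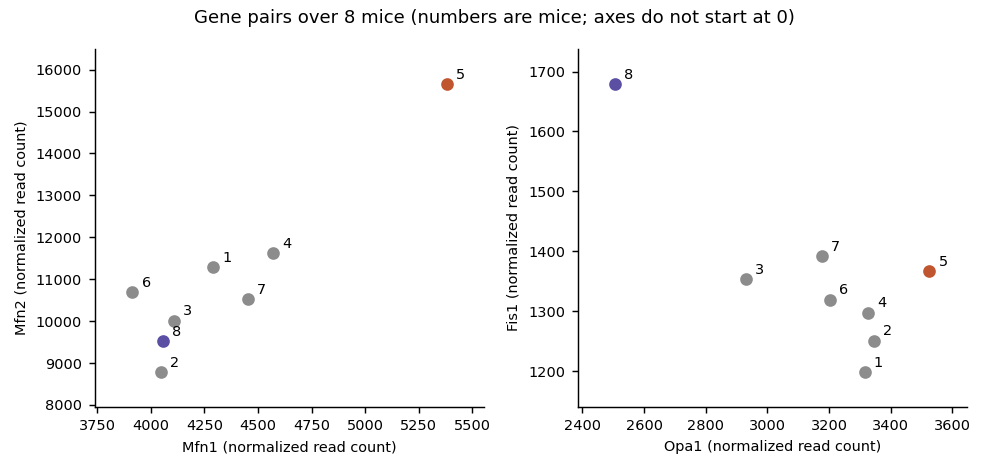
Normalized read counts of 2 pairs of genes over the 8 mice (points, numbered by mouse; axes do not start at 0): Mfn1 with Mfn2 and Opa1 with Fis1. Mouse 5 (orange) stands apart at the top right of the first panel, and mouse 8 (violet) at the top left of the second.

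The upstream sequences of the genes in these pairs are shown because their mRNAs had the highest and the lowest r. They are RefSeq windows of GRCm38.p6 from 250 bases before to 50 bases after an annotated start, in the direction of the gene, with capitals at the letters searched for. Those were GCGCATGCG for NRF1, CCGGAAG for GABPA and other ETS factors, TGACGT for CREB, CCAAT for NFY and GGGCGG for SP1, on both strands, with overlapping matches merged. The windows are chr3:32529232-32529531 (Mfn1), chr4:147904649-147904948 (Mfn2, the second of 3 annotated starts), chr16:29579084-29579383 (Opa1) and chr5:136953025-136953324 (Fis1, the first of 2 starts):
Mfn1: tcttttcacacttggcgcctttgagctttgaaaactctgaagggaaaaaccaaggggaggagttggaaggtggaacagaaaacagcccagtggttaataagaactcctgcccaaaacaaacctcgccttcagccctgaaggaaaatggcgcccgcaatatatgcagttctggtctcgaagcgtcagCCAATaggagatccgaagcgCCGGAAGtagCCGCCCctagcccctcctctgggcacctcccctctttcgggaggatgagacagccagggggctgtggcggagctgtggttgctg
Mfn2: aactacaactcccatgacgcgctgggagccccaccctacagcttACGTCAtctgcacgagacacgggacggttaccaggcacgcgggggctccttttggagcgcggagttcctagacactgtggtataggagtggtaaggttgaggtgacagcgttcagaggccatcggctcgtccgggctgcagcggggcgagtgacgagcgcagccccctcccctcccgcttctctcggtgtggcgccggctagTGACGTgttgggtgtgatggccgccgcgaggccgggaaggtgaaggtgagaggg
Opa1: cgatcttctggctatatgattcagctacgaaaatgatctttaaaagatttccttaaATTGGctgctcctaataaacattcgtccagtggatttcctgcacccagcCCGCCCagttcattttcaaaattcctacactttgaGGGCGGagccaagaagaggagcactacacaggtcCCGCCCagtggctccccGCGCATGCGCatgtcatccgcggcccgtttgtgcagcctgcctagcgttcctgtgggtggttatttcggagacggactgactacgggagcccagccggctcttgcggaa
Fis1: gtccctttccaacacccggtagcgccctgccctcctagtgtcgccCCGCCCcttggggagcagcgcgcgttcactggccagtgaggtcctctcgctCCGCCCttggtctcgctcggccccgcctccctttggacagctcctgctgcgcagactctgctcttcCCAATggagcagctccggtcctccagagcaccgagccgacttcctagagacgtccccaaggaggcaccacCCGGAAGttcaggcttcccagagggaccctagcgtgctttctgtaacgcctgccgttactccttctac
CCGGAAG began 44 bases before the start of Mfn1 and 18 before that of Fis1, and was absent from the windows of Mfn2 and Opa1. The NRF1 letters stood 59 bases before the start of Opa1 and in no other of the 10 genes. NRF1 and GABPA are nuclear factors known for driving genes of mitochondrial proteins.

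All 10 genes had such windows, 15 in all. CCGGAAG was found in 5 of the 10 genes (Mfn1, Dnm1l, Fis1, Mief1 and Immt), beside 19.95% of the 9876 genes that had a window and passed the count filter. CCAAT was found in 7 genes (beside 42.9%), GGGCGG in 9 (beside 68.1%), TGACGT in 2 (Mfn2 and Mief1, beside 13.2%) and the NRF1 letters in 1 (beside 4.11%). The letters AAGGTCA, bound by estrogen-related receptors, and AAGATGGC, bound by YY1, were in no window of the 10 genes, beside 3.87% and 5.35% of the 9876. Such matches describe letters in a window and do not show that a factor is bound. The motifs were chosen after the windows had been seen. The median GC content of the 15 windows was 59.3%, beside 60.7% for the windows of the 9876 genes.

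Genes whose pattern over the 8 mice was most like that of 5 of the genes were named by Pearson's r over 15114 genes, as a description without a test. With 8 mice a high r was common, since 32 genes had r above 0.9 with Mfn2, 164 with Opa1, 34 with Dnm1l, 78 with Fis1 and 11 with Immt. The 3 most like Mfn2 were Baiap2l2 (r = 0.980), Clcn6 (0.969) and Glud1 (0.968), all with their highest value in mouse 5 and their lowest in mouse 2. Clcn6 lies 99554 bases from Mfn2 on the same strand of chromosome 4, and Glud1 is the glutamate dehydrogenase of the mitochondrial matrix. The 3 most like Opa1 were Eif4g1 (0.989), a scaffold of translation initiation, Dennd4a (0.989) and the pseudogene Rnf170-ps (0.987), each highest in mouse 5 and lowest in mouse 8. Those most like Fis1 were Gm20521 (0.983), Pabpn1 (0.964), a nuclear poly(A)-binding protein, and Cir1 (0.963), each highest in mouse 8. Gm20521 and Pabpn1 share 5638 bases of their spans on 1 strand, and whether they share reads was not tested. Those most like Dnm1l were Ap3m1 (0.979), Map3k20 (0.961) and Nacc1 (0.957), and among those most like Immt were Rnf113a1 (0.944) and the pseudogene Gm36501 (0.941).

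Other genes of the same pathways were read from 5 lists of 43 genes, all of which were found and 41 of which passed the filter of 10 counts in every library. Of the 41, 40 varied beyond counting error (beside 81.0% of all genes), and Miga1 did not (adjusted p = 0.0554). Their median coefficient of variation after counting error was 11%, beside 13.1% for all genes. Mouse 5 was the highest for 6 of the 41, beside 15.9% of all genes.

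Among the inner membrane proteases and scaffolds, the prohibitin Phb2 was the highest at 36.4 ± 8.13 TPM and the rhomboid protease Parl the lowest at 11.8 ± 2.07 TPM (SD, n = 8 each). Among the partners of Immt in the cristae junction and outer membrane sorting complexes, Apoo was the highest at 92.4 ± 13.0 TPM and Chchd6 the lowest at 1.61 ± 0.620 TPM (SD, n = 8 each). Samm50, of the sorting complex, was the only gene of the 41 with 1 mouse set apart (a gap of 0.604 of the range, mouse 2), beside 5.33% of all genes.

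Among the other fusion factors, Slc25a46, a carrier-like protein of the outer membrane, was the highest at 19.5 ± 2.55 TPM (SD, n = 8). Pld6, a mitochondrial phospholipase, was the lowest, with 0 to 1 counts per library. Among the other fission factors, Ppp3ca, the calcineurin subunit that dephosphorylates Dnm1l, was the highest at 59.6 ± 8.44 TPM (SD, n = 8), and Mtfr2 had only 0 to 7 counts per library. Among the genes of mitochondrial transport, the kinesin Kif5b was the highest at 58.5 ± 13.7 TPM and the Miro GTPase Rhot1 the lowest at 11.7 ± 1.19 TPM (SD, n = 8 each).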

How the data were processed

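Poly-adenylated RNA of 8 muscles, 1 per mouse, was sequenced on an Illumina NextSeq. Per the labels and the methods, the authors trimmed with fastp, checked with FastQC, mapped with STAR to GRCm38 (GRCm38.p6 in the submitters' processing notes), counted per gene with summarizeOverlaps and normalized with DESeq2. The authors deposited a signal in which each count had been divided by the size factor of its library (0.906 to 1.20), since 100% of its values were whole multiples of 1 step within 0.01 of a read. Raw counts had been assumed, and the reads recovered from the steps were used for depth and count tests. The annotation release, strand and handling of reads with several matches are not given in the sources used here, and neither is whether the samples were prepared in batches.

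Symbols, positions and lengths came from GENCODE M21 (GRCm38; 55227 of 55487 identifiers found) and promoter windows from RefSeq. The mice were 1 group. The p-values of the sign-flip and permutation tests describe the spread between these 8 mice, and those of the chi-square test compare the libraries with counting error. With 1 library per mouse, the chi-square test cannot separate differences between mice from those of library preparation. Tests were exact sign-flip tests (256 patterns) and exact permutations of all pairings, two-sided, and a chi-square test of recovered counts; correlations used log2(value + 1). Reads carry no molecular identifiers, so counting error covers counting alone. Coefficients of variation from counting error alone were 0.963% (Mfn2) to 4.86% (Oma1), from 372 counts or more per gene and library. Genes named besides the 10 were the highest and lowest of each of 5 pathway lists by level per length, any pathway gene under 10 counts in a library, and the 3 genes most like each of Mfn2, Opa1, Dnm1l, Fis1 and Immt. For Immt, 1 of the 3 is not reported here, nor is a stretch of coding sequence. Miga1 and Samm50 were named after their values were seen. The rule for the 10 genes uses no measured value, but the genes, lists and motifs were chosen with earlier results of these data known. Alternatives were other gene lengths, edgeR's TMM factors, library totals, a pseudocount of 5, a looser filter, removal of trends on GC content and length, the median over mice and leaving out each mouse. The scripts were tested on simulated data. Python 3.11.15, scipy 1.17.1, R 4.3.3 and edgeR 4.0.16 were used.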

Additional observations from a re-analysis of the deposited data

Results flagged for a closer look

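Among 74 values checked for 1 mouse far from the other 7 (the genes, their ratios, the pathway genes and the summed marker lists), 3 passed the critical value of 0.526, where chance gives about 1 in 20, or 3.7. Fis1 stood apart in mouse 8, with a gap of 0.557 of its range (1679 normalized counts, against 1199 to 1392 in the other mice), but of 0.170 with library totals as the scaling. Samm50 stood apart in mouse 2, with a gap of 0.604. The summed Schwann cell markers stood apart in mouse 7, at 57.3 TPM with a gap of 0.710, against at most 30.8 TPM in the other mice. By normalized counts, mouse 7 was neither the highest nor the lowest for any of the 10 genes. By TPM it was the lowest for Mief1.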

How the results depend on the processing

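No paired analysis was possible because all 8 mice belonged to 1 condition. Of 308 values recomputed under alternatives, 22 changed direction, 5 newly passed the threshold and 23 moved further than the limits set for a stable value. Another 7 fell short of the threshold, all with a median in place of the mean, where no pair could pass. The rest did not change in these ways. The gene length moved the order of levels most. With the longest transcript, the log2 ratio of Fis1 over Mfn1 was 0.59 and passed the threshold, and Mfn1 over Immt (-1.10) and Mief2 over Mff (-0.58) reversed. With the mean transcript length, Fis1 over Mfn1 (-0.82), Mfn1 over Immt (-0.11), Dnm1l over Opa1 (-0.30) and Mief2 over Mff (-0.96) reversed, the ratio of Dnm1l to Mff was 0.492, that of Mfn2 to Mfn1 was 1.39, and 4 pairs differed in the reported order. With the exons of protein-coding transcripts, a length added after seeing the data, Fis1 over Mfn1 passed (0.65), Mfn1 over Immt (-1.66) and Mief2 over Mff (-1.42) reversed, the ratio of Dnm1l to Mff turned from 1.90 to 0.487, and that of fusion GTPases to fission genes from 1.60 to 0.977. A median in place of the mean could put no pair past the threshold, because over 8 mice many sign patterns give the same median. The adjusted exact sign-flip p was 0.0804 for each of the 7 pairs that passed with the mean, and decides nothing about them. The medians were 1.37 for Mfn2 over Fis1, 0.19 for Mfn1 over Immt, 0.37 for Immt over Dnm1l and 0.24 for Dnm1l over Opa1. Those of Mief2 over Mff, Mff over Oma1 and Oma1 over Mief1 were 0.59, 0.32 and 1.41.

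Library totals alone shift the median gene by -0.13 to 0.21 (log2) between mice. With them, Mfn1 with Mfn2 passed the threshold (r = 0.913, adjusted exact p = 0.00377), the only 1 of the 8 relations to do so, mouse 5 was highest for 4 of the 10 genes, all 10 varied beyond counting error (beside 86.9% of all genes), and 0 genes of the set had a mouse set apart (beside 3.84%). With edgeR's TMM factors 2 genes had a mouse set apart (Fis1 and Mfn2, beside 5.18%), and r of Dnm1l with Fis1 was -0.0017. With trends on GC content and length removed, 2 genes had a mouse set apart (Fis1 and Mfn2, beside 5.5%), and r of Opa1 with Immt was -0.039. The cause was not tested.

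Leaving out each mouse in turn, the log2 ratio of Fis1 over Mfn1 ran from 0.095 to 0.20 (past the threshold without mouse 5) and that of Opa1 over Mief2 from -0.043 to 0.062, and 7 to 8 pairs differed in the reported order. Of the relations, Mfn1 with Mfn2 ran from 0.609 to 0.962 (adjusted exact p = 0.0222 without mouse 6, the highest r), Mief1 with Mief2 from 0.0040 (without mouse 5) to 0.797, Opa1 with Immt from 0.023 (without mouse 8) to 0.612, Dnm1l with Fis1 from -0.182 to 0.535, Mfn2 with Dnm1l from -0.119 (without mouse 5) to 0.592 and Opa1 with Oma1 from -0.560 (without mouse 8) to 0.382, and 0 to 1 relations passed. The count of genes of the set that varied beyond counting error was 8 to 9 (beside 76.2% to 79.6% of all genes), and Mief1 fell out without mouse 5 (adjusted p = 0.0922). Depth limited Oma1 and Mief1 most, which had the fewest counts.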
